A study of Mus musculus with 6 samples.

Results

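Scara5, a ferritin receptor, and 9 other genes of iron handling were followed in mammary tumours of the mouse with and without a Bmp4 transgene. Scara5 was chosen on its difference between these groups, being 1 of 4 genes of 20401 that passed an adjusted p under 0.05 when control tumour 1 was left out. That call was lost in several other settings, given at the end. The 9 others (Tfrc, Slc11a1, Slc11a2, Steap3, Fth1, Slc40a1, Cp, Hmox1 and Hamp) were selected for their role in iron handling, with earlier results of these data known. A search of the authors' annotation for exactly these symbols found 29 probe sets of 45101, for 9 of the 10 genes. Hamp is listed there under its older symbol Hamp1, and its 2 probe sets were added through the RefSeq gene names. Of the 29 probe sets, 16 lay above the median of their array on all 6 arrays, 8 lay below it on all 6, and 4 lay below the 25th percentile on all 6. Dim probe sets were kept.

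Iron reaches most cells bound to transferrin, which is taken up by the transferrin receptor (Tfrc). It is reduced in endosomes by Steap3 and carried into the cytosol by Slc11a2, while Scara5 takes up iron inside serum ferritin by a route that does not need transferrin. Surplus iron is stored in ferritin, of which Fth1 is the heavy chain. It leaves cells through ferroportin (Slc40a1), helped by ferroxidases such as ceruloplasmin (Cp), and macrophages that break down red cells recover it from haem with Hmox1. The liver hormone hepcidin (Hamp) makes ferroportin break down, and BMP ligands are known to induce Hamp in hepatocytes.

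RNA of 6 whole primary tumours was measured, with 1 array per tumour. In 3 tumours (Bmp4 tumours 1 to 3) the 4T1.2 cells, a metastatic mouse mammary carcinoma line, carried mouse Bmp4 in the retroviral vector pBabepuro, and in 3 (control tumours 1 to 3) they carried the empty vector. All hosts were female Balb/c mice aged 6 to 8 weeks, injected with 100000 cells in the 4th inguinal mammary fat pad, and tumours were taken at about 0.3 g. The transgene was in the injected cells alone, so both groups hold host cells without it, and the labels do not say whether each tumour came from a separate mouse. The p-values below therefore measure the spread between these tumours. In whole tumours, fewer cells of a type and less RNA per cell cannot be told apart.

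Control tumour 1 was unlike the other arrays as a whole. Its correlation with them over probe sets was r = 0.655 to 0.719, against 0.959 to 0.993 among the other 5, and its interquartile range was 2.25 against 3.36 to 3.77. For Actb, the excess of the 3' over the 5' signal, a measure of RNA breakdown, ran at 1.44 to 2.33 in Bmp4 tumours and 2.62 to 5.64 in control tumours, with no overlap between groups. The same measure from Gapdh gave 1.62 to 3.13 in Bmp4 tumours and 2.46 to 5.31 in control tumours, and here control tumour 1, at 2.46, fell within the Bmp4 range. Hybridization controls, spiked in after labelling, averaged 9.79 to 10.09 in Bmp4 tumours and 10.42 to 12.84 in control tumours, without overlap. The part of these measures in the differences below was not tested. Of the 10 epithelial markers, Krt8 and Krt18 were bright in every tumour (12.80 to 13.03 and 11.80 to 12.07 in Bmp4 tumours, 12.10 to 13.02 and 9.82 to 12.06 in control tumours), and Esrp1 was dim, at 3.91 to 4.02 in Bmp4 tumours and 3.83 to 4.95 in control tumours. Cdh1 was 6.51, 6.90 and 6.88 in Bmp4 tumours, against 5.14, 7.87 and 8.15 in control tumours, and differed by -0.29 with all 6 tumours and by -1.25 ± 0.19 (SE; limma adjusted p = 0.194) without control tumour 1. Cldn4 was 6.24, 6.12 and 6.14 in Bmp4 tumours, against 6.33, 6.5 and 7.11 in control tumours, which did not overlap, and differed by -0.48 and, without control tumour 1, by -0.64 (limma adjusted p = 0.280). Of the 10, 5 had positive differences in each comparison and none passed the adjusted threshold. Over all 20401 genes, 44.5% of differences were positive with all 6 tumours and 44.3% without control tumour 1. These shares apply to every count of positive differences below. Results are given with all 6 tumours and without control tumour 1, unless stated otherwise. Levels are log2 expression of the brightest probe set of each gene, and differences are given as Bmp4 minus control in log2 units, with limma's two-sided p adjusted over all 20401 genes by the Benjamini-Hochberg method. For a single value, an exact permutation test of 3 tumours against 3 cannot go below p = 0.1.

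Among the 10 genes, Scara5 differed most. Slc11a1, a phagosomal iron transporter of macrophages, and the haem-degrading enzyme Hmox1 had higher means in Bmp4 tumours, by more than 2-fold. Steap3 had a lower mean, and Tfrc, Fth1 and Cp, read from their brightest probe sets, differed between the groups mainly through control tumour 1. None of the 9 genes other than Scara5 passed the adjusted threshold, with all 6 tumours (0% of all genes passed) or without control tumour 1 (0.0196% passed). At an unadjusted p under 0.05, Slc11a1 was higher and Steap3 lower in both comparisons, and without control tumour 1 Hmox1 was also higher and Slc11a2 also lower. That is 1 higher and 1 lower of 9 with all 6 tumours, where 3.74% of all genes were higher and 1.16% lower, and 2 and 2 without control tumour 1, where the shares were 9.07% and 5.67%. Hamp stayed below the median of every array in both groups.

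Scara5 was read from probe set 1451204_at. Its level was 9.83, 9.73 and 9.97 in Bmp4 tumours 1 to 3, against 7.13, 7.70 and 7.89 in control tumours 1 to 3. The lowest Bmp4 tumour lay well above the highest control tumour, and the Bmp4 tumours lay close together, at 9.85 ± 0.12 (SD, n = 3) against 7.57 ± 0.39 (SD, n = 3) in control tumours. The difference was 2.27, or 4.83-fold, and 2.05, or 4.14-fold, without control tumour 1. Against control tumour 3 alone it was 1.95. These differences chose the gene and are given as a description, with no test. In the authors' deposited table its ratio was 4.26.

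The second Scara5 probe set, 1431336_at, did not show this pattern. Its level was 5.51, 5.19 and 5.37 in Bmp4 tumours, against 6.43, 5.49 and 5.05 in control tumours, and the groups overlapped. It lay below the array median on 5 of 6 arrays. Its difference was -0.30, and 0.08 without control tumour 1, and its ratio in the authors' deposited table was 1.01. The Scara5 difference was therefore seen in 1 of its 2 probe sets, the brighter one.

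The genes whose pattern over the 6 tumours was most like that of Scara5 were Kazald1, Smad6, Perp, Ano1 and Emb. Likeness was the root mean square difference between gene values after each gene was centred on its own mean, and it was 0.22 for Kazald1, 0.25 for Smad6 and 0.32 to 0.33 for the other 3. Scara5 was chosen on its difference between the groups, so genes with a similar difference come out near it. These 5 genes differed by 1.84 to 2.62 with all 6 tumours. The ranking is a description, and a link of these genes with Scara5 was not tested. Smad6, an inhibitory SMAD that BMP signalling is known to induce, was measured at 8.36, 7.47 and 8.29 in Bmp4 tumours, against 5.08, 5.78 and 5.91 in control tumours. Over the 5 tumours without control tumour 1 the nearest were Tcrb-J, Cavin2, Kazald1, Cxcl15 and Smad6, at 0.22 to 0.27, so Kazald1 and Smad6 were in both lists. Of the 9 other iron genes, Slc11a1 was nearest to Scara5, at 0.62 over 6 tumours and 0.56 over 5, and Steap3 was farthest, at 1.61 and 1.41.

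**Figure D1:**
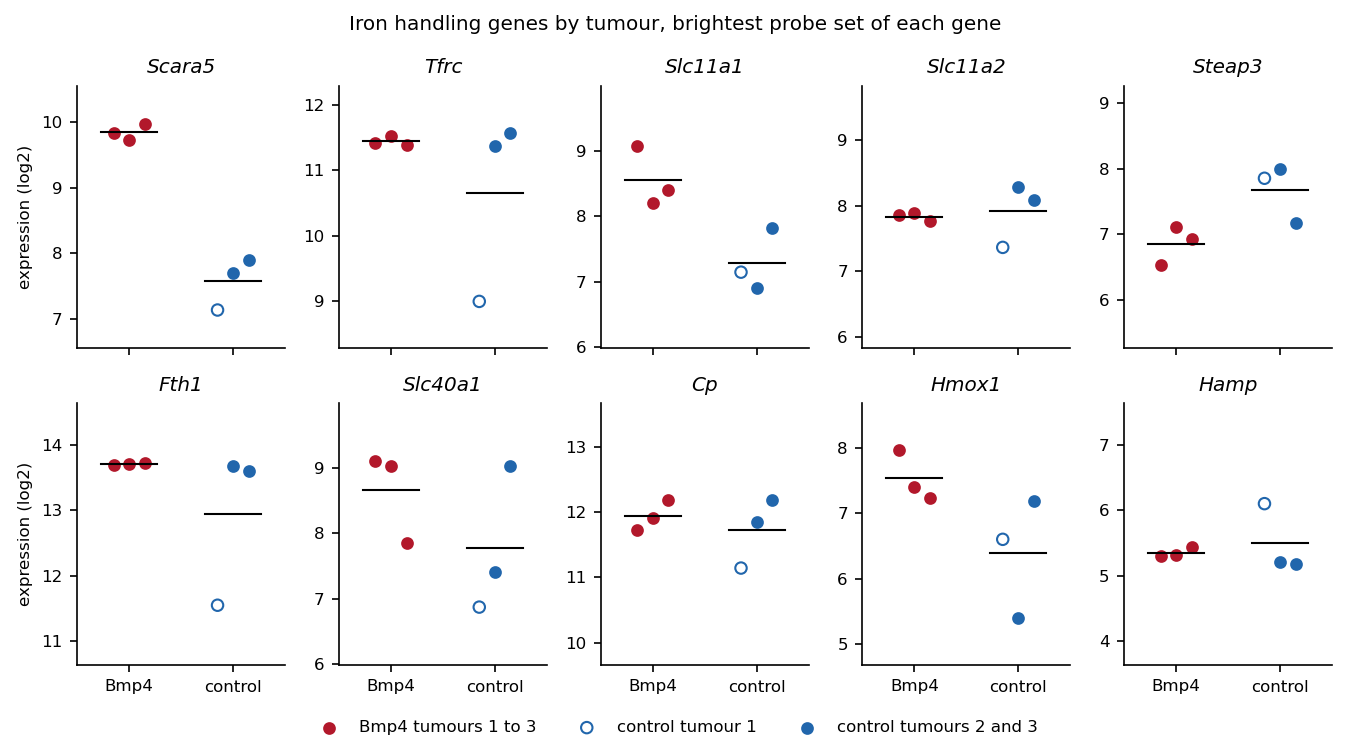
Log2 expression (y axis, each panel spanning 4 log2 units) of the brightest probe set of each gene in the 3 Bmp4 tumours and the 3 control tumours; points are tumours, the open circle is control tumour 1 and lines are group means. Scara5 lies at 9.73 to 9.97 in Bmp4 tumours and 7.13 to 7.89 in control tumours, and the open circle is the lowest point of Tfrc, Fth1 and Cp.

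Among the other uptake genes, the transferrin receptor did not separate the groups. Tfrc was measured by probe set 1452661_at at 11.42, 11.52 and 11.38 in Bmp4 tumours, against 9.0, 11.37 and 11.58 in control tumours. Control tumour 1 was low and the other 5 tumours lay within a narrow band. The difference was 0.79 ± 0.69 (SE; limma adjusted p = 0.504), but only -0.03 ± 0.15 (SE; adjusted p = 0.929; 95% interval -0.38 to 0.32) without control tumour 1. The 5 other Tfrc probe sets were dimmer, with means of 3.23 to 5.90 over the 6 tumours. Of these, 3 are the manufacturer's quality probes along the transcript, and their 3' minus 5' difference was 1.67 to 2.19 in Bmp4 tumours and 1.59 to 1.85 in control tumours, which overlapped. The 5' probe set lay near the floor, at the 1.7th to 4.9th percentile of its array, so this difference says little about RNA breakdown.

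Slc11a1, also called Nramp1, exports iron and manganese from the phagosomes of macrophages. Its only probe set, 1420361_at, gave 9.07, 8.20 and 8.40 in Bmp4 tumours, against 7.14, 6.91 and 7.81 in control tumours. All 3 Bmp4 tumours were above all 3 control tumours, but Bmp4 tumour 2 was only just above control tumour 3. The groups differed by 1.27 ± 0.37 (SE; adjusted p = 0.496), or 2.41-fold, and by 1.2 ± 0.35 (SE; adjusted p = 0.270) without control tumour 1. Against control tumour 3 alone it was 0.74. Its ratio in the authors' deposited table was 2.46, with an adjusted p of 0.523.

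Slc11a2, also called DMT1, moves ferrous iron across the endosomal and the gut cell membrane. Probe set 1417584_at gave 7.86, 7.88 and 7.76 in Bmp4 tumours, against 7.36, 8.29 and 8.08 in control tumours. Control tumours 2 and 3 were above all Bmp4 tumours and control tumour 1 was below them. The difference was -0.08 ± 0.32 (SE; adjusted p = 0.867) with all 6 tumours and -0.35 ± 0.15 (SE; adjusted p = 0.337) without control tumour 1. All 4 Slc11a2 probe sets had negative differences without control tumour 1, from -0.17 to -0.41. With all 6 tumours 1452078_a_at, at 0.05, was the exception.

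Steap3, the endosomal ferrireductase first known from red cell precursors, had the lowest difference of the 10 genes. Probe set 1423468_at gave 6.54, 7.11 and 6.93 in Bmp4 tumours, against 7.85, 7.99 and 7.17 in control tumours. All 3 Bmp4 tumours were below all 3 control tumours, with Bmp4 tumour 2 close to control tumour 3. The mean difference was -0.82 ± 0.33 (SE; adjusted p = 0.496), and -0.73 ± 0.29 (SE; adjusted p = 0.327) without control tumour 1. Against control tumour 3 alone it was -0.32. The 2 other Steap3 probe sets, 1430355_a_at and 1453498_x_at, lay below the 25th percentile on every array, and 1453498_x_at opposed the brightest one in sign, at 0.045 and 0.064.

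**Figure D2:**
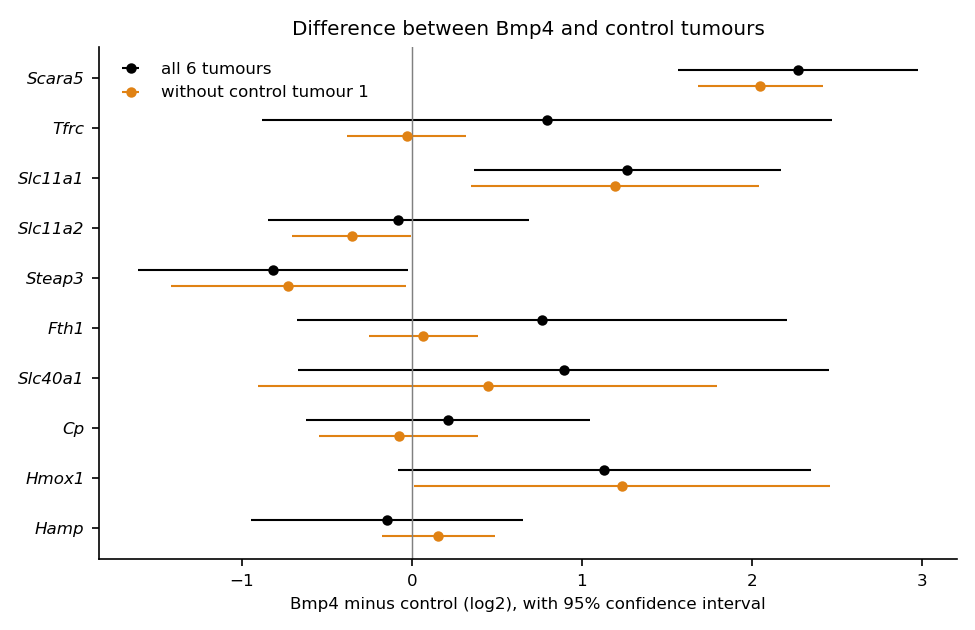
Difference between Bmp4 and control tumours on the log2 scale (x axis) for the brightest probe set of each gene, with all 6 tumours (black) and without control tumour 1 (orange); points are limma estimates and bars are 95% confidence intervals, which are not adjusted for the number of genes. Tfrc moves between 0.79 and -0.03 and Fth1 between 0.76 and 0.07 with control tumour 1 in and out, whereas Slc11a1 stays at 1.27 and 1.2; the interval of Scara5 is a description, since the gene was chosen on this difference.

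The storage gene Fth1 was among the brightest on the arrays, and its 2 probe sets differed. The brighter one, 1448771_a_at, gave 13.69, 13.70 and 13.73 in Bmp4 tumours, against 11.55, 13.67 and 13.61 in control tumours. Apart from control tumour 1, the tumours spanned little more than 0.1 log2 units. The difference was 0.76 ± 0.60 (SE; adjusted p = 0.496), and 0.07 ± 0.13 (SE; adjusted p = 0.810; 95% interval -0.25 to 0.39) without control tumour 1. Probe set 1427021_s_at, whose suffix marks probes that can match several transcripts, gave 13.50, 13.07 and 12.88 in Bmp4 tumours, against 11.27, 11.60 and 12.71 in control tumours. The groups did not overlap in either probe set, though only just in 1448771_a_at (13.69 against 13.67). For 1427021_s_at the difference was 1.29 ± 0.43 (SE) with all 6 tumours and 1.0 ± 0.36 (SE) without control tumour 1 (limma over all probe sets, adjusted p = 0.499 and 0.340). The authors' deposited table gives ratios of 1.25 and 2.03 for these probe sets. Fth1 has many processed copies in the genome, so which transcripts its probes measured is uncertain.

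The other ferritin chain was higher in every Bmp4 tumour as well. Ftl1, the light chain, was 12.81, 12.02 and 12.30 in Bmp4 tumours, against 8.87, 11.81 and 11.84 in control tumours. Control tumour 1 was again far below the rest, and Bmp4 tumour 2 was close to control tumours 2 and 3. The difference was 1.54 ± 0.83 (SE; adjusted p = 0.496), and 0.55 ± 0.24 (SE; adjusted p = 0.351) without control tumour 1. Of the 5 measured storage genes, 4 had positive differences in both comparisons, with medians of 1.54 and 0.19. Ncoa4, which delivers ferritin for breakdown, was not analysed here.

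The exporter ferroportin varied within both groups. Slc40a1 was measured by probe set 1417061_at at 9.10, 9.03 and 7.84 in Bmp4 tumours, against 6.87, 7.41 and 9.02 in control tumours. Control tumour 3 was as high as Bmp4 tumours 1 and 2, and Bmp4 tumour 3 lay between the control tumours. The difference was 0.89 ± 0.65 (SE; adjusted p = 0.496), 0.45 ± 0.56 (SE; adjusted p = 0.703) without control tumour 1, and -0.36 against control tumour 3 alone. The second probe set, 1448566_at, gave 7.10, 6.98 and 6.29 in Bmp4 tumours, against 6.26, 5.87 and 7.01 in control tumours. Both probe sets placed Bmp4 tumour 3 lowest in its group and control tumour 3 highest in its own.

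Ceruloplasmin, the copper ferroxidase, is read by 8 probe sets, which did not move together. The brightest, 1417494_a_at, gave 11.72, 11.91 and 12.18 in Bmp4 tumours, against 11.14, 11.84 and 12.19 in control tumours, and the groups overlapped. Its difference was 0.21 ± 0.35 (SE; adjusted p = 0.674), and -0.08 ± 0.20 (SE; adjusted p = 0.859; 95% interval -0.55 to 0.39) without control tumour 1. Control tumour 1 was the lowest tumour in 7 of the 8 probe sets. With all 6 tumours 7 of 8 differences were positive, and without control tumour 1 this was 4 of 8. Cp probe sets 1448735_at and 1417497_at lay above in every Bmp4 tumour, by 0.67 and 0.66 without control tumour 1, while Cp probe set 1455393_at differed by -0.66. None of the 3 passed the adjusted threshold (limma over all probe sets, adjusted p = 0.319, 0.339 and 0.360).

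**Figure D3:**
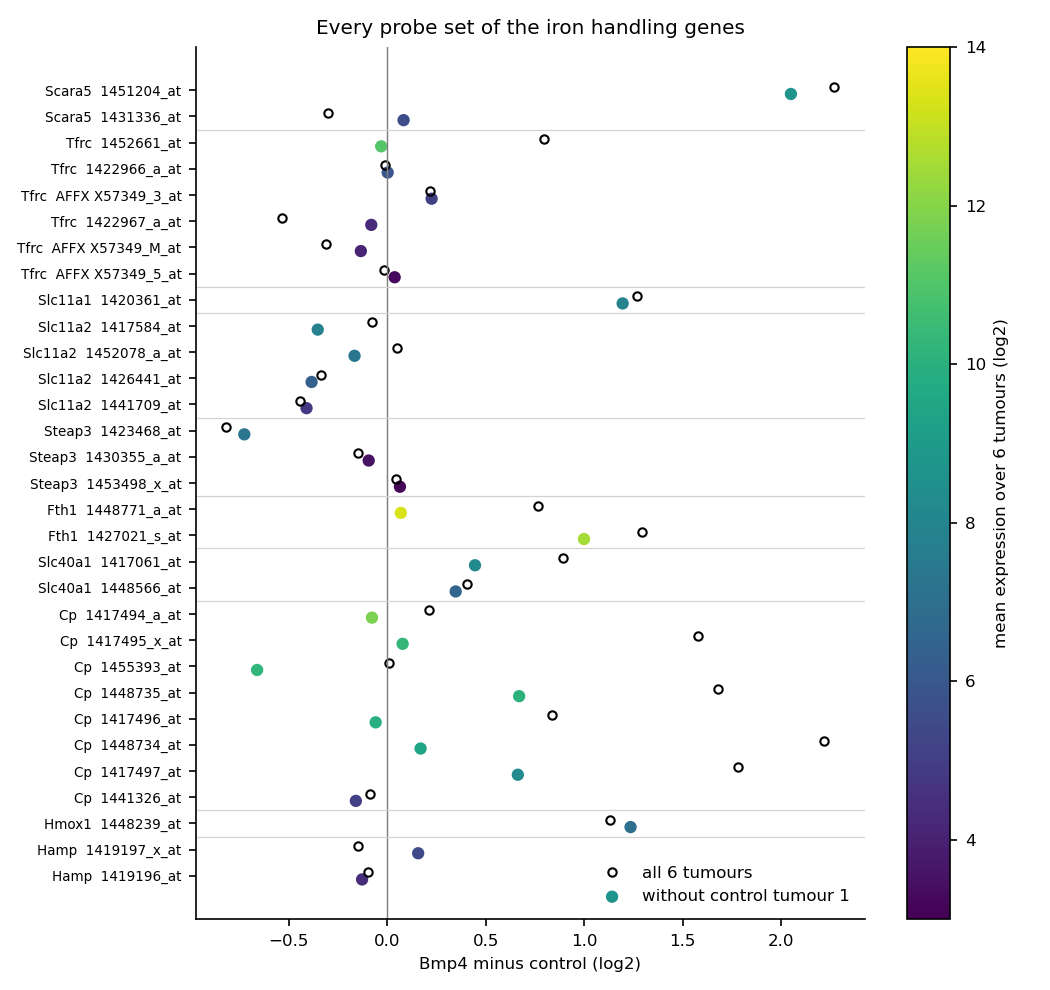
Difference between Bmp4 and control tumours (x axis, log2) for each of the 31 probe sets of the 10 genes, ordered by gene; open circles use all 6 tumours, filled circles leave out control tumour 1 and are coloured by mean expression. The 8 Cp probe sets spread from -0.66 to 0.67 without control tumour 1, and the bright and the dim Scara5 probe set lie at 2.05 and 0.08.

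Hmox1, which cleaves haem to biliverdin and frees its iron, was higher in the Bmp4 tumours, with 1 control tumour close to them. Its only probe set, 1448239_at, gave 7.96, 7.4 and 7.23 in Bmp4 tumours, against 6.6, 5.41 and 7.18 in control tumours. The groups did not overlap, but Bmp4 tumour 3 and control tumour 3 differed by far less than the control tumours did among themselves. The groups differed by 1.13 ± 0.50 (SE; adjusted p = 0.496), or 2.19-fold, and by 1.24 ± 0.51 (SE; adjusted p = 0.335) without control tumour 1. Against control tumour 3 alone it was 0.35, and against control tumour 2 alone it was 2.12 (adjusted p = 0.0460, with the lone control tumour assumed to vary like the Bmp4 tumours). The size of the difference was thus set by which control tumour was used.

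Hmox1, Slc11a1, Slc40a1 and the haemoglobin scavenger receptor Cd163 are known from macrophages, and markers of macrophages moved with the same tumours. The mean level of the 12 macrophage markers, all measured, was 11.17, 10.60 and 10.25 in Bmp4 tumours, against 8.45, 8.43 and 10.47 in control tumours. Control tumour 3 lay above Bmp4 tumour 3. Of the 12 markers, 11 had positive differences with all 6 tumours and 12 without control tumour 1, none passed the adjusted threshold, and their median difference was 1.75 and 1.22. Against control tumour 3 alone the median was 0.09. Csf1r, a defining receptor of macrophages, was 12.66, 12.44 and 12.15 in Bmp4 tumours, against 12.88, 10.71 and 12.59 in control tumours. Csf1r and C1qb were the only markers of the 12 that peaked in control tumour 1. In Cd14, Fcgr3 and Lyz2 the groups did not overlap, with the Bmp4 tumours higher (3 of 12, against 12.9% of all genes). Lyz2 was 12.70, 11.85 and 11.62 in Bmp4 tumours, against 8.73, 9.53 and 10.84 in control tumours. The groups overlapped in the other markers. The part of these markers in the Slc11a1, Hmox1 and Slc40a1 differences was not tested.

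Cd163 followed control tumour 3 more than the group. It was 8.51, 8.89 and 7.74 in Bmp4 tumours, against 7.54, 5.39 and 9.50 in control tumours. Control tumour 3 was the highest of all and control tumour 2 the lowest. The difference was 0.90 ± 1.0 (SE; adjusted p = 0.560), and 0.94 ± 1.09 (SE; adjusted p = 0.681) without control tumour 1.

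Scara5 is also known from fibroblasts. The mean of the 12 fibroblast markers was 10.43, 10.20 and 10.26 in Bmp4 tumours, against 8.40, 10.74 and 10.20 in control tumours. Control tumour 2 was the highest and control tumour 1 the lowest, so the groups overlapped. The median difference of the 12 markers was 0.48 with all 6 tumours and -0.02 without control tumour 1. The 7 measured erythroid markers averaged 4.64 to 4.70 in Bmp4 tumours and 4.76 to 5.73 in control tumours, below the median of every array. The 7 measured of 10 neutrophil markers averaged 6.59 to 6.78 in Bmp4 tumours and 6.64 to 8.31 in control tumours. Adipocyte markers, 7 measured of 8, averaged 5.63 to 5.77 in Bmp4 tumours and 5.67 to 6.38 in control tumours. Epithelial markers, all 10 measured, averaged 7.08 to 7.18 in Bmp4 tumours and 6.95 to 7.43 in control tumours. The part of any of these in the Scara5 difference was not tested.

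**Figure D4:**
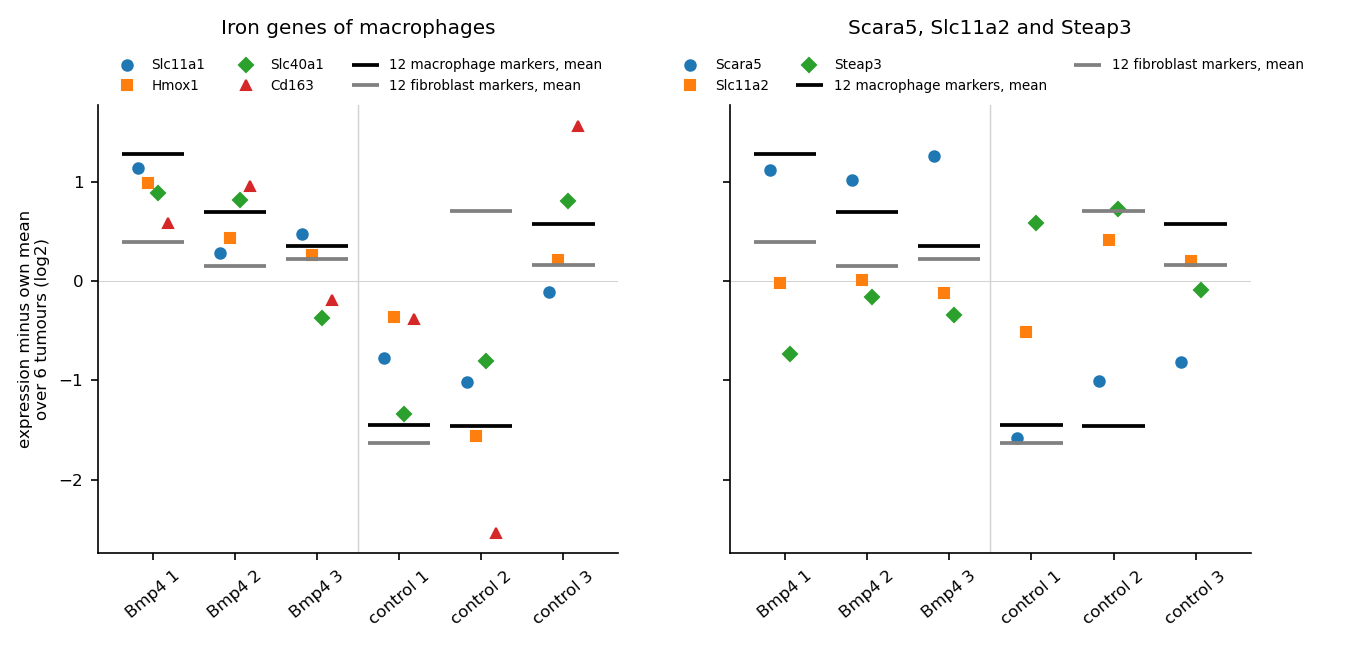
Log2 expression minus each gene's own mean over the 6 tumours (y axis), by tumour (x axis), for Slc11a1, Hmox1, Slc40a1 and Cd163 (left) and for Scara5, Slc11a2 and Steap3 (right); black and grey bars are the means of 12 macrophage and 12 fibroblast markers, centred in the same way. In control tumours 1 and 2 the macrophage marker mean is lowest, at 8.45 and 8.43 before centring, and in control tumour 3, at 10.47, it lies above Bmp4 tumour 3 and below Bmp4 tumours 1 and 2.

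Hepcidin was measured below the median of every array. Its brighter probe set, 1419197_x_at, gave 5.30, 5.32 and 5.44 in Bmp4 tumours, against 6.10, 5.21 and 5.18 in control tumours. Control tumour 1 was the highest, and the other 5 tumours lay within 0.3 log2 units. The difference was -0.15 ± 0.33 (SE; adjusted p = 0.762), and 0.16 ± 0.14 (SE; adjusted p = 0.583; 95% interval -0.17 to 0.49) without control tumour 1. Both Hamp probe sets lay below the median on all 6 arrays, the other one, 1419196_at, at 4.24 to 4.39 in Bmp4 tumours and 4.36 to 4.53 in control tumours. The 8 hepatocyte markers averaged 4.72 to 4.81 in Bmp4 tumours and 4.77 to 5.54 in control tumours, below the median of every array. Ttr, 1 of the 8, lay above the median of every array, at 5.84 to 5.93 in Bmp4 tumours and 5.92 to 7.02 in control tumours. Some others did so on some arrays.

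The start of Hamp lies on chromosome 7, and the 250 bases before it, chr7:30944030-30944279 on the minus strand of GRCm38.p6, are shown from RefSeq because BMP ligands act on this gene in the liver. Capitals mark GGCGCC, the core of a BMP response element known from the human hepcidin promoter, which reads the same on both strands.
Hamp: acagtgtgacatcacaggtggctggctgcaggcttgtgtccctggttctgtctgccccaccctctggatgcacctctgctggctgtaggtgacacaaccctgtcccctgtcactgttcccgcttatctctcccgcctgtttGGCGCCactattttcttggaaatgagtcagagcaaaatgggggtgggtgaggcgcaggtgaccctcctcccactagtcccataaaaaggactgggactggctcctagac
The motif begins 109 bases before the start. Of 32851 RefSeq promoter windows of this length, 3149 (9.59%) hold it. Windows were listed for 6 of the 10 genes, and it was found in the 1 window of Hamp and in 1 of 2 windows of Tfrc, and in none of those of Cp, Fth1, Slc11a1 and Steap3. A match is a description of the letters and no measured site.

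The wider iron genes were read from 7 lists, drawn up with earlier results of these data known. Of 82 listed genes, with Scara5 left out, 76 were measured. None passed the adjusted threshold in either comparison. At an unadjusted p under 0.05 with all 6 tumours, 6 of 76 were higher in Bmp4 tumours (7.89%, against 3.74% of all genes) and 2 were lower (2.63%, against 1.16%). Of the 6 higher, 3 were the BMP receptor gene Bmpr1a and the BMP targets Smad7 and Id1, from the list of hepcidin and its regulation. Without control tumour 1, 10 of the 76 were higher (13.2%, against 9.07%) and 6 were lower (7.89%, against 5.67%). The 8 genes of the first comparison were all among these 16, and 5 of the 10 higher were from the hepcidin list. With all 6 tumours, the Bmp4 tumours were all above the control tumours in 21 of 76 (27.6%, against 12.9% of all genes) and all below in 4 (5.26%, against 13.6%). These counts depend on control tumour 1. Without it more of the 76 were all below, Slc11a2 among them, and some more were all above, Hamp among them. The shares over all genes were not counted for that comparison. The median difference of the 76 was 0.70 with all 6 tumours and 0.08 without control tumour 1, where the medians of all genes were -0.12 and -0.04. Differences were positive in 53 and 45 of the 76, against 44.5% and 44.3% of all genes. Control tumour 1 was the lowest tumour for 50 of the 76. The share over all genes was not counted, and the 75th percentile of its whole array was also the lowest, at 7.29 against 7.80 to 8.01. Whether this count is particular to iron genes was not tested.

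With all 6 tumours, Trf had the largest difference among the uptake genes, and Slc39a14 came next after Scara5. Of the 17 uptake genes, 11 had positive differences with all 6 tumours (median 0.57) and 10 without control tumour 1 (median 0.06). Trf, which encodes transferrin, was 10.83, 10.22 and 10.38 in Bmp4 tumours, against 5.54, 7.83 and 9.93 in control tumours. Every Bmp4 tumour was higher, and the control tumours spanned more than 4 log2 units. The difference was 2.71 ± 1.04 (SE; adjusted p = 0.496), and 1.60 ± 0.57 (SE; adjusted p = 0.300) without control tumour 1. Slc39a14, a carrier of iron not bound to transferrin, was 10.76, 10.06 and 10.87 in Bmp4 tumours, against 6.29, 9.91 and 9.43 in control tumours, a difference of 2.02 ± 0.95 (SE; adjusted p = 0.496), and 0.89 ± 0.29 (SE; adjusted p = 0.280) without control tumour 1. Lcn2, which binds bacterial siderophores, differed by 1.72, and by 0.12 without control tumour 1. The metalloreductases Steap1 and Steap4 differed by 0.61 and 0.95, and by 0.12 and 0.06 without control tumour 1, and lactoferrin (Ltf) by 0.08 and -0.26.

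Of the 12 genes of haem uptake, breakdown and export, Hmox1 included, 11 had positive differences with all 6 tumours (median 0.87) and 9 without control tumour 1 (median 0.32). The shares over all genes were 44.5% and 44.3%. None of the 12 passed the adjusted threshold. Control tumour 1 was the lowest tumour for 8 of the 12, for which no share over all genes was counted. Hmox2, the constitutive haem oxygenase, was 10.56, 10.46 and 10.43 in Bmp4 tumours, against 9.42, 9.98 and 10.33 in control tumours, so it too was higher in every Bmp4 tumour, by 0.57 ± 0.31 (SE; adjusted p = 0.496) and 0.32 ± 0.16 (SE; adjusted p = 0.395) without control tumour 1. Haptoglobin (Hp), which binds free haemoglobin, differed by 0.57 and 0.46, and haemopexin (Hpx), which binds free haem, by 0.30 and 0.69. The haem exporter Flvcr1 differed by 1.53 and 0.10, and the lysosomal haem carrier Slc48a1 by 0.18 and -0.32. Alas1, the first enzyme of haem synthesis, was 9.50, 8.82 and 9.31 in Bmp4 tumours, against 5.67, 8.71 and 8.81 in control tumours, and differed by 1.48 and 0.45. Slc25a37, which brings iron into mitochondria, differed by 1.29 and -0.18. Of the 16 measured genes of haem synthesis and mitochondrial iron, 10 had positive differences in both comparisons, with medians of 0.51 and 0.08.

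All 5 measured genes of the cellular iron sensing list were lowest in control tumour 1, for which no share over all genes was counted. Their median difference was 0.97 with that tumour and 0.06 without it. Aco1 and Ireb2, whose proteins bind iron-responsive elements in the transcripts of ferritin and of Tfrc, differed by 0.95 and 1.2, and by -0.35 and 0.17 without control tumour 1. Fbxl5, which marks the Ireb2 protein for breakdown, differed by 0.97 and 0.06. Nfe2l2, an inducer of Hmox1 and of the ferritin genes, was 11.83, 11.24 and 11.66 in Bmp4 tumours, against 4.77, 10.99 and 11.24 in control tumours. Control tumour 1 lay more than 6 log2 units below every other tumour for this gene. The difference was 2.58 ± 1.70 (SE; adjusted p = 0.496), and 0.46 ± 0.21 (SE; adjusted p = 0.364) without control tumour 1. Of the 5 measured export genes, 4 had positive differences with all 6 tumours (median 0.21) and 2 without control tumour 1 (median -0.08). The ferroxidase Heph was dim, at 3.45 to 3.62 in Bmp4 tumours and 3.36 to 4.13 in control tumours.

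Of the 16 measured genes of hepcidin and its regulation, 8 had positive differences with all 6 tumours (median 0.31) and 7 without control tumour 1 (median -0.09). At an unadjusted p under 0.05, 3 of 16 were higher and 0 lower with all 6 tumours, against 3.74% and 1.16% of all genes. Leaving out control tumour 1 gave 5 higher and 1 lower, against 9.07% and 5.67%. The 3 were the BMP receptor gene Bmpr1a and the BMP targets Smad7 and Id1 (1.52, 1.56 and 1.44), named here after their values were seen. Hfe, a partner of the transferrin receptors, was higher in every Bmp4 tumour. Its level was 9.29, 8.64 and 8.78 in Bmp4 tumours, against 5.85, 8.10 and 8.24 in control tumours. The difference was 1.5 ± 0.67 (SE; adjusted p = 0.496), and 0.73 ± 0.22 (SE; adjusted p = 0.276) without control tumour 1. Tfr2, which senses loaded transferrin, differed by -0.54 and -0.09, the BMP coreceptor gene Hjv by -0.46 and -0.15, and Tmprss6, a protease that cuts the coreceptor, by -0.68 and -0.18. In these 3 genes control tumour 1 was the highest tumour. Bmp6, the ligand that signals iron load in the liver, was dim and differed by -0.37 and -0.23. Il6, an inducer of hepcidin in inflammation, differed by 1.31 ± 1.39 (SE; adjusted p = 0.549), and by -0.26 ± 0.67 (SE; adjusted p = 0.863) without control tumour 1. It was 9.45, 8.20 and 9.26 in Bmp4 tumours, against 4.53, 10.33 and 8.12 in control tumours, and these overlapped.

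**Figure D5:**
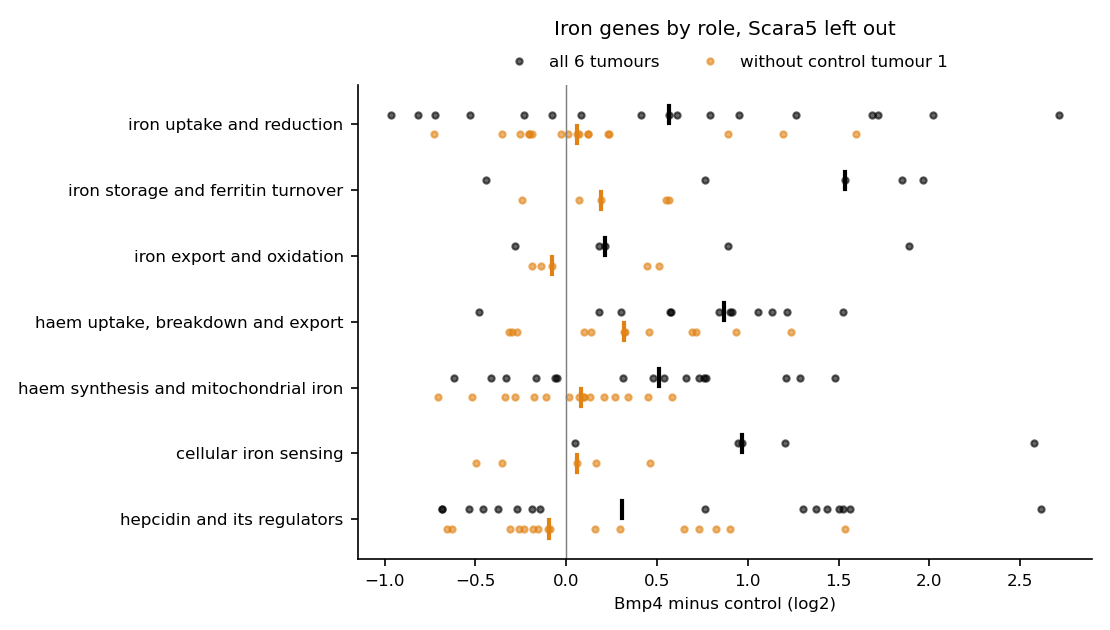
Difference between Bmp4 and control tumours (x axis, log2) for the 76 measured genes of 7 iron lists, Scara5 left out; each point is a gene, vertical ticks are list medians, black uses all 6 tumours and orange leaves out control tumour 1. The median over all 76 is 0.70 in black and 0.08 in orange.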

How the data were processed

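The 6 tumours were grouped by their labels. The authors deposited log2 expression per probe set, made with RMA and Partek 6.6 per the submitters' processing notes. The set of arrays normalized in 1 run, the probe annotation and the genome build are not given in the sources used here. Per the file headers, a second deposited table holds the authors' analysis of variance per probe set, with the Bmp4 to control ratio, the fold change with its sign, scores (F and sums of squares) and p-values before and after adjustment. The arrays it used are not stated.

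Probe sets with no symbol (5905) or several (2273) and 64 control probe sets were left out of the gene fit, and symbols were updated through the RefSeq gene table of GRCm38.p6, used for names. For each of 20401 genes the brightest probe set over the 6 arrays was used. Genes, and separately all probe sets, were tested with limma 3.58.1 in R 4.3.3 (lmFit and eBayes, two-sided, Benjamini-Hochberg adjustment, threshold 0.05). Tables and plots were made in Python 3.11.15 with pandas 2.3.3 and matplotlib 3.10.9. The scripts were tested on simulated data. The number of arrays limits the precision.

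The members, the 7 iron lists, the 7 marker lists and the tests were chosen with earlier results of these data known. Named genes were the 10 members with every probe set, 27 genes of the iron lists whatever their values, any other list gene past the threshold, and the 5 genes most like Scara5. Csf1r, C1qb, Cd14, Fcgr3, Lyz2, Krt8, Krt18, Cdh1, Cldn4, Esrp1 and Ttr were named from the marker lists outside that rule, with their values known.

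Alternatives were quantile normalization, centring of arrays, filters on dim genes, averaged or single probe sets, trend and robust options, weights for arrays, a replicate block on tumour number, tumours left out and the authors' ratio. Same-numbered tumours of the groups did not deviate together (r = -0.14, -0.25 and -0.04), so the numbers were not treated as pairs. Columns of per-sample values left unmapped numbered 0.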

Additional observations from a re-analysis of the deposited data

How the results depend on the processing

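With 6 arrays, 1 of them apart, which genes passed depended on the setting. None of the 76 iron genes passed in either comparison, and this held under every alternative but 2. Array weights, estimated gene by gene after the default estimate did not converge (a choice made after seeing the data), gave control tumour 1 a weight of 0.0335 and called 11 with all 6 tumours (8 higher and 3 lower), among them Slc11a1 (1.49, adjusted p = 0.0332), Hmox1 (1.77, adjusted p = 0.0380) and Steap3 (-0.99, adjusted p = 0.0431), and 25 at an unadjusted p under 0.05, where the fit without weights gave 8. Over all 20401 genes the weights called 1396, and 6410 at an unadjusted p. Without control tumours 1 and 3, 3 were called, which were Hmox1, Trf and Cd163, and 356 of all genes, so leaving out 1 further tumour gave 0 to 3. At an unadjusted p, leaving out each tumour gave 1 to 18 with all 6 as the start (16 without control tumour 1, 18 without control tumour 3, 5 without control tumour 2, 1 without Bmp4 tumour 1 and 2 without Bmp4 tumour 2 or 3), and 10 to 24 starting from the 16 without control tumour 1 (10 without Bmp4 tumour 1 or control tumour 2). Over all 20401 genes the unadjusted counts with all 6 as the start moved too. They were 3007 without control tumour 1, 3177 without control tumour 3 and 902 without control tumour 2. Without Bmp4 tumours 1, 2 and 3 in turn they were 179, 617 and 281. From the start without control tumour 1, leaving out Bmp4 tumour 1 as well moved the count over all genes from 3007 to 1385. For the other tumours left out from that start, the counts over all genes are not given here. With tumour number as a replicate block the unadjusted counts were 5 and 8 of the 76, against 462 and 1246 of all genes. The block called none of the 76 or of all genes at the adjusted threshold in either comparison. The cause of these moves was not tested.

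The call that chose Scara5 without control tumour 1 (adjusted p = 0.0443) was lost with median centring (0.0517), every probe set tested alone (0.0696), array weights (0.0673), the mean of probe sets (0.125), the replicate block (0.814), each Bmp4 tumour left out (0.0765 to 0.469) and control tumour 2 left out (0.131). Scara5 fell to 0.98 and 1.07 with the mean of its 2 probe sets, which brings in the dim one. The signs of Hamp, Cp, Slc11a2, Tfrc, Slc40a1 and Fth1 changed in some settings. With all 6 tumours, Hamp became 0.070 with quantile normalization, 0.036 with median centring and 0.15 with array weights, Cp became -0.21 with quantile normalization and -0.091 with centring on the 75th percentile, and Slc11a2 became 0.10 with median centring. With control tumours 1 and 2 left out, Tfrc was -0.13, Slc40a1 -0.36, Hamp 0.17 and Cp -0.25. In the authors' deposited table, on the log2 scale, Tfrc was -0.11, Hamp 0.056 and Cp -0.079. Without control tumour 1, Tfrc was 0.037 with median centring, Fth1 -0.046 with centring on the 75th percentile, and Cp 0.078 with the mean of probe sets and 0.028 with the replicate block. Leaving out each tumour in turn gave -0.078 to 0.44 for Cp, -0.31 to 0.16 for Hamp, -0.35 to 0.11 for Slc11a2 and -0.031 to 1.26 for Tfrc with all 6 as the start, and -0.25 to 0.093 for Cp, -0.36 to 1.25 for Slc40a1, -0.13 to 0.072 for Tfrc and 0.35 to 2.12 for Hmox1 without control tumour 1.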
